A study of Mus musculus with 8 samples.

Results

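The genes described here are 10 immediate early genes of the Egr, Fos, Jun and Ier families (Egr1, Egr2, Egr3, Fos, Fosb, Fosl1, Jun, Junb, Ier2 and Ier3), read by gene symbol from a table of 23606 genes in 4T1 cells, a mouse mammary carcinoma line. All 10 had values in every library and all 10 were among the 15746 genes tested. RNA was sequenced in 8 libraries of wild-type cultured cells. All cells received SKL2001, a stabilizer of β-catenin, overnight. The control group received SKL2001 alone (Ctrl, replicates 1 to 4), and the hypomethylated group received SKL2001 and decitabine, a nucleoside that depletes DNA methyltransferases (Hypo, replicates 2 to 5). The comparison asks how the transcriptome of hypomethylated cells differs from that of control cells when both are exposed to a Wnt agonist. Cells that received no SKL2001 are not part of these data as analyzed here, and the response to SKL2001 itself is not separated.

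Immediate early genes are transcribed within minutes of a growth factor, stress or adhesion signal, because the factors that start their transcription are already bound or present and need only be phosphorylated. The MAP kinase cascades deliver much of this signal to serum response factor with its Elk partners and to CREB, and the transcripts decay quickly once it ends. The Egr proteins are zinc finger transcription factors. Fos and Jun proteins pair through leucine zippers to form the transcription factor AP-1, which in mammary carcinoma cells is known for driving proliferation, invasion and matrix protease genes. Ier2 and Ier3 are small proteins without a known DNA-binding domain.

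Libraries held between 27486245 and 39388394 reads assigned to genes. Ctrl replicate 3 stood apart from the other Ctrl libraries, with a chi-square per degree of freedom over genes of 25.1 to 33.5 against 4.46 to 5.29 among the others. In Hypo the most distant pair was replicates 4 and 5 (21.5), and no pair in either group agreed within counting noise. Summed over 16 stress response genes, the normalized count was 97867 in Ctrl replicate 3, between 60811 and 71940 in the other Ctrl libraries and between 63522 and 75587 in Hypo, and 12 of the 16 genes were highest in Ctrl replicate 3. The summed count of 4 epithelial markers (Epcam, Cdh1, Krt8, Krt18) was 86801 to 94625 in Ctrl and 85126 to 96351 in Hypo, and 1 of the 4 (Epcam) was higher in Hypo (adjusted p = 0.00036, limma). Fibroblast markers summed to 2215 to 2598 in Ctrl and 2957 to 3635 in Hypo (3 of 4 tested genes higher), immune markers to 132 to 150 and 216 to 384 (2 of 3 higher) and endothelial markers to 23.5 to 50.4 and 103 to 127 (1 of 2 higher), and their part in the differences was not tested. Of all genes tested, 14.1% were called higher in Hypo by limma. It is not stated whether the 4 libraries of each group derive from separate cultures. The p-values therefore reflect only how far these libraries differ, and that spread may be technical.

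The sequences before the start sites are shown for 5 of the 6 genes that rose in hypomethylated cells, because immediate early genes are read from short promoters whose elements are well described. Windows were matched by symbol in RefSeq (GRCm38.p6) for 6 of the 10 genes. Each window holds the 250 bases upstream of an annotated start, 5′ to 3′ on the gene's own strand. They lie at chr10:67537619-67537868 (plus strand, 1 of 5 windows of Egr2), chr12:85473640-85473889 (plus strand, Fos), chr7:19310046-19310295 (minus strand, Fosb), chr4:95052223-95052472 (minus strand, Jun) and chr8:84978749-84978998 (minus strand, Junb). Capitals mark matches on either strand to the cyclic AMP response element core TGACG, the CArG box bound by serum response factor, the AP-1-like element TGACATCA and the Egr element GCGNGGGCG.
Egr2: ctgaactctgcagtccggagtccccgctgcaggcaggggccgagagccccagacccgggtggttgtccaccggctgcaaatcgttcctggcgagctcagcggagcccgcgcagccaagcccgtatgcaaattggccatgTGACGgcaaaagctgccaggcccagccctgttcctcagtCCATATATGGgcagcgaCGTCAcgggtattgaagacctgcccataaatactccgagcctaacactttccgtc
Fos: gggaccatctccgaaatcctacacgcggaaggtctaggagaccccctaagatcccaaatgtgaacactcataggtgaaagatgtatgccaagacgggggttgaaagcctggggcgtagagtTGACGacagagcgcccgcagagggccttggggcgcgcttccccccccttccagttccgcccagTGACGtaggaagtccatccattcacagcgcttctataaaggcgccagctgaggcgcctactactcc
Fosb: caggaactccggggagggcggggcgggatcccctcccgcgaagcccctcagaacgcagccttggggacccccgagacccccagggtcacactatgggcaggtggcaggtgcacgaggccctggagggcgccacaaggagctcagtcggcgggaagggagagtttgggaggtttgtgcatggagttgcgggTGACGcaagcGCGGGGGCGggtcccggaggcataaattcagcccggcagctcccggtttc
Jun: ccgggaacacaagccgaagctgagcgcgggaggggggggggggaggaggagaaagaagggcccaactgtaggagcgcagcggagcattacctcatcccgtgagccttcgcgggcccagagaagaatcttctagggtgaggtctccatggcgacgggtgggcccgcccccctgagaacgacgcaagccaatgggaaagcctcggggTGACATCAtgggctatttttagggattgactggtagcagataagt
Junb: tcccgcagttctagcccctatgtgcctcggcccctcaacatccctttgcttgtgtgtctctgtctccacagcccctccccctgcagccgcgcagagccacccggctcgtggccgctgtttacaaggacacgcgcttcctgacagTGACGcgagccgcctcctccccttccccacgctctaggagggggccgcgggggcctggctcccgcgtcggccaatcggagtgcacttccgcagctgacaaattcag

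The letters TGACG were present upstream of Egr2, Fos, Fosb and Junb, and in 17.8% of all 32851 windows of this length. The match closest to a start lay 51 bases upstream in Egr2, 62 in Fos, 56 in Fosb and 102 in Junb. A CArG box, found in 1.47% of windows, was matched only in windows of Egr2, where it ended 63 bases upstream of the start shown. Only exact matches within 250 bases were searched, so a more distant or variant CArG box would be missed. Egr1, Egr3, Fosl1 and Ier2 had no window. TGACATCA, found in 2.93% of windows, ended 38 bases upstream of the Jun start. GCGNGGGCG, found in 4.70% of windows, ended 42 bases upstream of the Fosb start and did not overlap its TGACG. The Ets core CCGGAA, found in 12.0% of windows, was matched in another window of Egr2 and in no window of Fos, Fosb, Jun, Junb or Ier3. The AP-1 element TGANTCA, found in 6.75% of windows, was in no window of the 6 genes. Methylation of mammalian DNA lies mostly on CpG dinucleotides, which were also counted. The windows printed held 17 CpG for Egr2, 15 for Fos, 19 for Fosb, 15 for Jun and 20 for Junb. The Ier3 window held 8, and the median of all windows was 6. Such counts were common. At least as many CpG were in 23.5% of all windows for Egr2, 27.3% for Fos and Jun, 19.7% for Fosb, 17.9% for Junb and 43.0% for Ier3. Methylation of these windows was not analysed here.

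In hypomethylated cells 6 of the 10 genes rose (Egr1, Egr2, Fos, Fosb, Jun and Junb), against 14.1% of all genes tested, and 0 fell, against 8.75%. In either direction 22.8% of all genes were called. The tests were limma's on the deposited variance-stabilized values, two-sided, with Benjamini-Hochberg adjustment over all genes tested and a threshold of 0.05. Of the genes that did not pass, 1 (Egr3) was lower with an unadjusted p below that threshold, and edgeR and DESeq2 on recovered reads also called 0 of the 10 lower. The largest rise was that of Egr1 (4.73-fold), followed by Egr2 (2.33-fold), Fos (1.99-fold), Jun (1.56-fold), Junb (1.52-fold) and Fosb (1.42-fold). The values of Hypo and Ctrl did not overlap in 6 of the 10 genes, 5 of them higher in Hypo, against 25.7% of all genes in either direction, 15.4% higher and 10.3% lower. The median ratio of Hypo to Ctrl was 1.47 over the 10 genes and 1.003 over all genes tested. Levels are counts of reads scaled to library size by the authors, called normalized counts here, and fewer cells expressing a gene cannot be told apart from less RNA per cell in bulk samples.

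**Figure D1:**
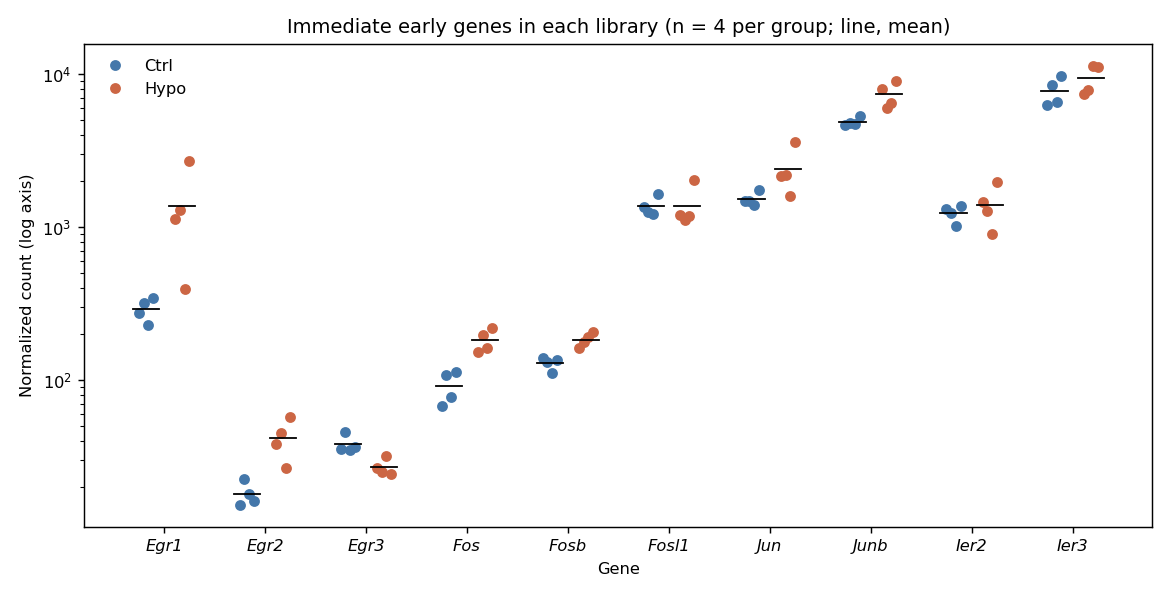
Normalized count (log axis) of each gene in the 4 Ctrl libraries (blue) and the 4 Hypo libraries (orange), with a line at each group mean. The Hypo points lie above all Ctrl points for Egr1, Egr2, Fos, Fosb and Junb and below them for Egr3, and the ranges of the groups overlap for Fosl1, Jun, Ier2 and Ier3.

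Egr1 (chr18:34859823-34864984, plus strand; gene positions here and later are those of GENCODE on GRCm38), the family member most widely induced by growth factors, had the largest ratio of Hypo to Ctrl of the 10 genes and, among the Hypo libraries, the largest coefficient of variation. Its normalized counts were 276, 319, 230 and 346 in Ctrl, listed here and throughout from replicate 1 to 4, and 1142, 1302, 393 and 2702 in Hypo, listed from replicate 2 to 5. The groups did not overlap, but Hypo replicate 4 was close to the Ctrl range and Hypo replicate 5 was far above the rest. The mean was 293 ± 50.9 (SD, n = 4) in Ctrl and 1385 ± 963 (SD, n = 4) in Hypo. On the variance-stabilized scale, which is log2-like for high counts and compressed for low ones, the difference was 1.44 ± 0.33 (SE) with an adjusted p of 0.0083 from limma. Leaving out Hypo replicate 5 gave 1.08 (adjusted p = 0.0086) and leaving out Hypo replicate 4 gave 1.82 (adjusted p = 0.0001, limma). The coefficient of variation among Hypo libraries was 69.6%, and only 6 of the 11293 genes whose mean normalized count reached 100 (0.0531%) had a value as high or higher, Egr1 among them. Among Ctrl libraries it was 17.4%, a value reached by 8.29% of those genes.

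Egr2 (chr10:67535475-67542188, plus strand), known for its role in myelinating Schwann cells, was expressed at a low level in 4T1 cells. It had normalized counts of 15.4, 22.6, 18.1 and 16.2 in Ctrl and 38.2, 45.4, 26.6 and 58.0 in Hypo. As for Egr1, the Hypo libraries were all higher, with replicate 4 the lowest and replicate 5 the highest. The difference was 0.26 ± 0.06 (SE) on the variance-stabilized scale (adjusted p = 0.0080, limma) and 1.20 on the log2 scale of edgeR. Quantile normalization of the transformed values ended this call (adjusted p = 0.070, limma).

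Egr3 (chr14:70077203-70082614, plus strand), a close relative that nerve and muscle signals also induce, went the other way. Its normalized counts were 35.9, 46.1, 35.3 and 36.8 in Ctrl and 26.6, 25.3, 32.1 and 24.6 in Hypo. All Hypo libraries were lower than all Ctrl libraries, and the Ctrl mean was 1.42 times the Hypo mean, but the test was not passed (difference −0.12 ± 0.04 (SE), adjusted p = 0.076, limma). It was passed after quantile normalization (adjusted p = 0.0039), with library weights (0.021) and without both Ctrl replicate 3 and Hypo replicate 4 (0.048), all with limma. Nab1 and Nab2, corepressors that bind Egr proteins, were at 4963, 4696, 4525 and 4848 (Nab1) in Ctrl against 4451, 5068, 5024 and 4754 in Hypo, with adjusted p of 0.84 for Nab1 and 0.40 for Nab2 (limma).

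Of the Fos family, Fos and Fosb rose whereas Fosl1 was level. Fos (chr12:85473890-85477273, plus strand), the founding member and the partner with which Jun forms classical AP-1, had normalized counts of 67.6, 108, 77.9 and 114 in Ctrl and 154, 198, 162 and 218 in Hypo. The lowest Hypo library was above the highest Ctrl library. The difference was 0.44 ± 0.08 (SE; adjusted p = 0.0015, limma), and it was called in each of the 22 alternatives run. Fosb (chr7:19302696-19310051, minus strand), whose stable splice form is known from neurons, was at 139, 132, 112 and 136 in Ctrl and 163, 179, 191 and 206 in Hypo. The groups did not overlap, and the spread within each was small (coefficients of variation of 9.33% and 9.76%). The difference was 0.24 ± 0.06 (SE; adjusted p = 0.0081, limma), and its call was lost after quantile normalization (adjusted p = 0.20, limma) and without both Hypo replicate 4 and Hypo replicate 5 (adjusted p = 0.075, limma), an alternative chosen after seeing the data.

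Fosl1 (chr19:5447547-5455946, plus strand), which encodes Fra-1, an AP-1 subunit associated with invasive mammary carcinoma cells, was at 1350, 1260, 1214 and 1663 in Ctrl and 1200, 1121, 1178 and 2026 in Hypo. Of the Hypo libraries, replicates 2 to 4 lay below every Ctrl library and replicate 5 above every one. The difference was −0.02 ± 0.14 (SE; adjusted p = 0.95, limma). Without Hypo replicate 5 it was −0.19 (adjusted p = 0.13, limma), so that library decided the value. Fosl1 shares 2767 bases with Ccdc85b on the opposite strand, whose own difference was −0.20 (adjusted p = 0.19, limma). No source used here gives whether strand was used in counting, so reads of such overlapping genes may not be told apart.

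Fosl2, encoding Fra-2, fell. Its normalized counts were 5713, 5410, 5573 and 6141 in Ctrl and 3498, 3793, 3711 and 4558 in Hypo, so that every Hypo library was lower. The difference was −0.53 ± 0.07 (SE; adjusted p = 0.00023, limma), and it was called in each of the 22 alternatives. To compare the members by level, normalized counts were divided by the exon length of each gene. Of the summed count per kb of the 4 Fos family genes, Fosl1 held 50.8 ± 2.13% in Ctrl and 56.5 ± 4.43% in Hypo (SD, n = 4), and Fosl2 held 44.7 ± 2.23% and 34.3 ± 3.35%. Fos held 2.94 ± 0.632% in Ctrl and 6.64 ± 0.934% in Hypo, and Fosb held 1.58 ± 0.148% and 2.54 ± 0.352%. Thus the genes that rose were the minor members of the family in these cells.

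Both Jun and Junb rose, and Jund, the member usually expressed without a stimulus, had no detected change. Jun (chr4:95049034-95052222, minus strand) was at 1498, 1479, 1408 and 1751 in Ctrl and 2156, 2185, 1615 and 3599 in Hypo. Hypo replicate 4 lay within the Ctrl range, so the groups overlapped. The difference was 0.52 ± 0.16 (SE; adjusted p = 0.042, limma). This call was near the threshold and was lost in 8 of 22 alternatives, among them leaving out Ctrl replicate 1 (adjusted p = 0.091), Ctrl replicate 2 (0.097), Ctrl replicate 4 (0.051), Hypo replicate 2 (0.076) or Hypo replicate 3 (0.078), all with limma. Without Hypo replicate 5 the difference was 0.32 (adjusted p = 0.034, limma). Jun shares 689 bases with its antisense gene Junos, which had a mean normalized count of 71.4.

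Junb (chr8:84974484-84978718, minus strand), which in several cell types opposes the growth-promoting action of Jun, was at 4634, 4832, 4732 and 5310 in Ctrl and 8081, 5982, 6527 and 9044 in Hypo. The Ctrl libraries were tightly grouped (coefficient of variation 6.14%) and all Hypo libraries were higher. The difference was 0.56 ± 0.11 (SE; adjusted p = 0.0023, limma), called in each of the 22 alternatives. Junb shares 351 bases with Prdx2 on the opposite strand, which had a mean normalized count of 8902 and a difference of −0.13 (adjusted p = 0.18, limma). Jund was at 7432, 7702, 6521 and 8823 in Ctrl and 7142, 5703, 6457 and 8556 in Hypo, and these ranges overlapped (adjusted p = 0.44, limma). With library weights it was called lower (adjusted p = 0.027, limma). Of the summed count per kb of the Jun family, Junb held 29.7 ± 1.66% in Ctrl and 39.5 ± 1.32% in Hypo (SD, n = 4), Jun held 6.72 ± 0.182% and 9.08 ± 1.89%, and Jund held 63.6 ± 1.76% and 51.4 ± 1.54%.

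**Figure D2:**
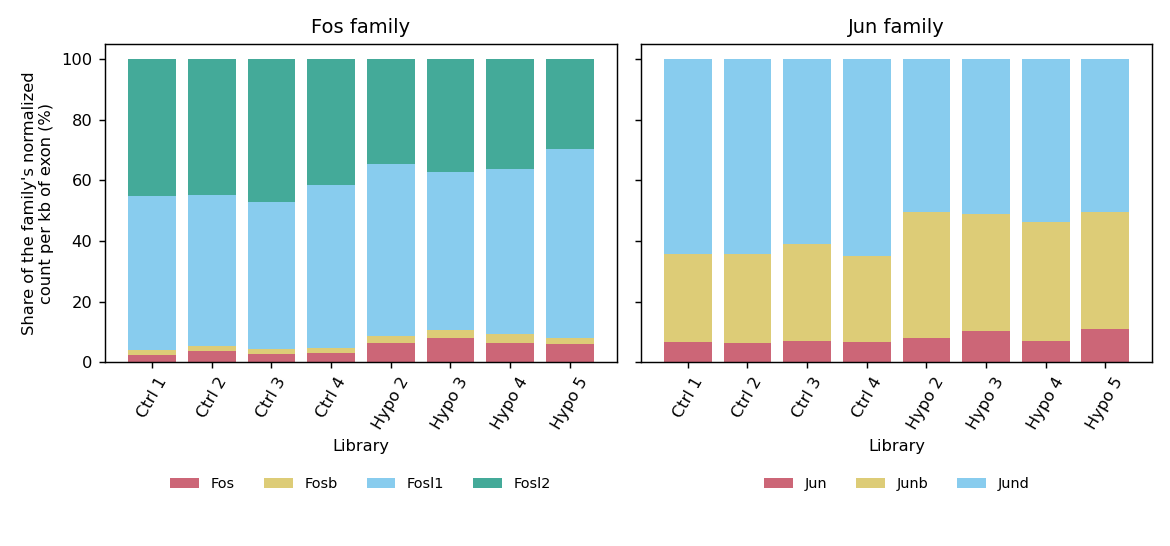
Share of each gene in the summed normalized count per kb of exon of the Fos family (left) and the Jun family (right), in percent, with 1 bar per library. Fosl1 and Fosl2 make up most of the Fos family in every library, and the Junb share rises from a mean of 29.7% in Ctrl to 39.5% in Hypo.

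Neither Ier gene passed the test. Ier2 (chr8:84661331-84662852, minus strand), encoding a nuclear protein, was at 1328, 1250, 1021 and 1377 in Ctrl and 1473, 1284, 904 and 1976 in Hypo. Hypo replicate 4 was the lowest and Hypo replicate 5 the highest of the 8 libraries, and the difference was 0.12 ± 0.16 (SE; adjusted p = 0.64, limma). Ier3 (chr17:35821684-35822923, plus strand), which modulates survival and apoptosis, was at 6294, 8488, 6608 and 9758 in Ctrl and 7409, 7946, 11350 and 11197 in Hypo. Here Hypo replicate 4 was the highest library, and the difference was 0.27 ± 0.16 (SE; adjusted p = 0.25, limma).

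**Figure D3:**
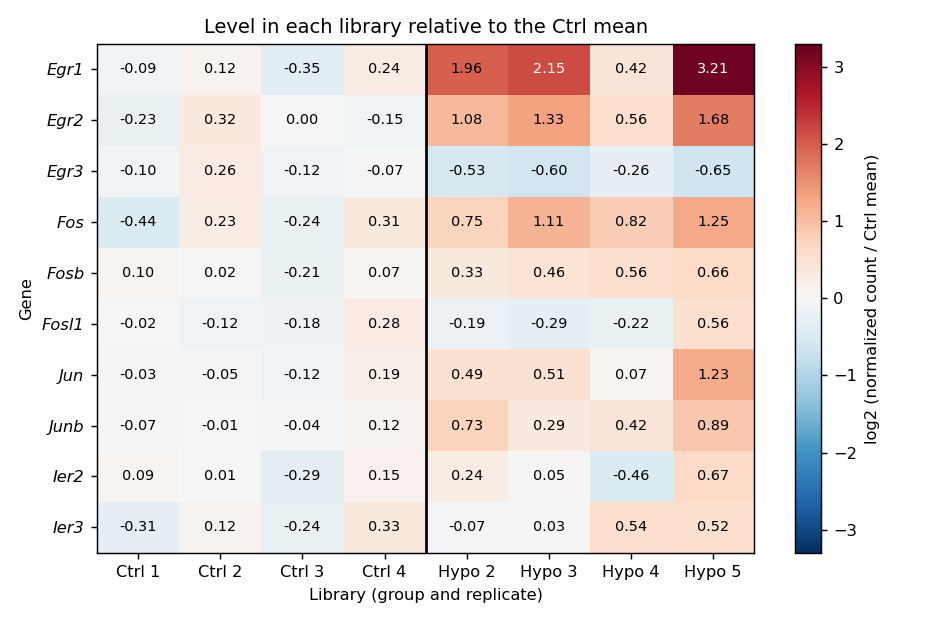
Level of each gene in each library as log2 of the normalized count over the Ctrl mean of that gene, with red above and blue below that mean and the value printed in each cell. The row of Egr1 ranges from 0.42 in Hypo replicate 4 to 3.21 in Hypo replicate 5, and the row of Egr3 is below 0 in all Hypo libraries.

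Ordered by normalized count per kb of exon, the Ctrl levels were 6885 for Ier3, 2119 for Junb, 817 for Ier2, 675 for Fosl1, 481 for Jun, 65.3 for Egr1, 39.01 for Fos, 20.8 for Fosb, 8.74 for Egr3 and 5.32 for Egr2. In Hypo the order on this scale was the same from Ier3 to Ier2, then Jun (749), Fosl1 (679), Egr1 (309), Fos (77.8), Fosb (29.6), Egr2 (12.4) and Egr3 (6.17). Jun thus passed Fosl1, and Egr2 passed Egr3. Ier3 and Junb stayed far above the Egr genes in both groups. Neighbors such as Jun and Fosl1 in Hypo differed by less than the spread between libraries (coefficients of variation of 35.5% and 31.2%).

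The 10 genes also tended to vary together around their group means, but not every pair did so in each group. Among the Hypo libraries 8 of the 10 were highest in replicate 5, as were 32.7% of all genes tested, and among the Ctrl libraries 7 were highest in replicate 4, as were 26.7% of all genes. After the group means were subtracted, the median Pearson r over the 45 pairs of these genes was 0.48 (8 libraries), against 0.0162 over all pairs of genes whose mean normalized count reached 100. Egr2 and Egr3 were below that minimum. Without Hypo replicate 5 the median over the 45 pairs was 0.23, and the value over all pairs was not computed without that library. The highest values were for Egr1 with Jun (0.95), Egr1 with Ier2 (0.94), Jun with Ier2 (0.93) and Egr1 with Egr2 (0.92). For Egr1 with Egr2, r was 0.99 over the Hypo libraries and 0.12 over the Ctrl libraries. Over Ctrl, Egr2 had a negative r with Fosb, Fosl1, Jun, Junb and Ier2 (−0.52 to −0.10). It was positive there with Egr1, Egr3, Fos and Ier3. Egr3 again went against most of the others, with a negative r in 6 of its 9 pairs. This differed by group. Over the Ctrl libraries its r was 0.47 with Egr1 and 0.89 with Egr2, and over the Hypo libraries −0.94 and −0.93. The r values of Egr2 and Egr3 within a group rest on low counts (Egr2 15.4 to 22.6 in Ctrl, Egr3 24.6 to 32.1 in Hypo). Counting error was not separated from them, so the change of sign between groups may not be real. Ctrl replicate 2 was the highest Ctrl library for both Egr2 (22.6) and Egr3 (46.1). These correlations are descriptions over few libraries that share depth and handling. The mean of the 10, each standardized on the transformed scale, was also compared with 10736 other genes over the 8 libraries, without subtracting group means. These were genes whose mean normalized count reached 100, with predicted genes, RIKEN genes and pseudogenes left out. The highest r was that of Nbl1 (0.98), followed by Phldb3 (0.97), Aaas (0.97), Hyou1 (0.96), Srrm4 (0.96) and Entr1 (0.96). With so many genes and so few libraries, values this high can arise by chance. Of these only Srrm4 was called (adjusted p = 0.029, limma).

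Of 13 other Fos, Jun and bZIP partner genes tested, 3 rose, Atf3 and Maf among them, and 2 fell (Fosl2 and Atf2). The median difference of this list was 0.06, against 0.0035 over all genes tested, of which 14.1% rose and 8.75% fell. Atf3, a stress-induced partner of Jun, was at 900, 774, 1148 and 760 in Ctrl and 1700, 1746, 1105 and 2058 in Hypo (1.85-fold, adjusted p = 0.0038, limma). Hypo replicate 4 was again the lowest Hypo library and lay below Ctrl replicate 3.

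Other immediate early genes moved in both directions. Of 33 tested, 10 rose, 6 fell and 17 did not pass, with a median difference of −0.08. Over all genes tested, 14.1% rose and 8.75% fell. Arc, an endosomal capsid-like protein known from neurons, rose 2.57-fold, from 82.0, 112, 71.5 and 74.4 in Ctrl to 236, 227, 150 and 262 in Hypo (difference 0.61 ± 0.09 (SE), adjusted p = 0.00037, limma). Csrnp1, a nuclear protein first described as induced by axin, rose 1.65-fold, from 897, 1009, 1122 and 1012 to 1707, 1570, 1456 and 1936 (adjusted p = 0.00016, limma). The genes that fell included a major growth regulator. Myc, the growth-promoting transcription factor and a known Wnt target, was at 5758, 5497, 6540 and 6483 in Ctrl and 3858, 3697, 4393 and 4496 in Hypo, 1.48 times higher in Ctrl (difference −0.53 ± 0.07 (SE), adjusted p = 0.00025, limma). Zfp36l1, which promotes decay of AU-rich transcripts, was 1.45 times higher in Ctrl (difference −0.46 ± 0.06 (SE), adjusted p = 0.0003, limma). Without both Ctrl replicate 3 and Hypo replicate 4, 12 genes of this list fell. In that setting 2050 of all 15746 genes tested fell, against 1378 in the main test.

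Of 14 factors acting on immediate early promoters, 0 rose, against 14.1% of all genes tested, and 2 fell, against 8.75%, namely Elk3 (8976, 8278, 7973 and 8892 in Ctrl and 6688, 6776, 6647 and 6989 in Hypo, adjusted p = 0.00051, limma) and Elk1 (difference −0.19 ± 0.05 (SE), adjusted p = 0.021, limma), both of which bind DNA together with serum response factor. The Elk1 call was lost without Ctrl replicate 1 (adjusted p = 0.064), Ctrl replicate 2 (0.059) or Ctrl replicate 4 (0.073), with limma. Srf, the gene of serum response factor itself, was at 1603, 1463, 1521 and 1649 in Ctrl and 1401, 1433, 1332 and 1688 in Hypo (adjusted p = 0.41, limma). Crem, a cyclic AMP response factor, passed only without Hypo replicate 4 (adjusted p = 0.020), without that library and Ctrl replicate 3 (0.019) or with library weights (0.025), by limma. It was also the 1 gene of this list that was higher at an unadjusted p below 0.05, and edgeR and DESeq2 called 0 higher.

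Of 24 MAP kinase cascade genes, 2 rose (Map2k6 and Map2k7), against 14.1% of all genes, and 3 fell (Nras, Mapk13 and Mapkapk2), against 8.75%. The other 19 did not pass. Map2k6, a kinase that activates p38, stood out at 21.5, 30.4, 24.5 and 17.1 in Ctrl and 103, 80.3, 90.9 and 79.7 in Hypo. All Hypo libraries were well above Ctrl (3.79-fold, difference 0.54 ± 0.05 (SE), adjusted p = 1.6e-05, limma). Its relative Map2k7, which activates JNK, rose 1.16-fold (adjusted p = 0.023, limma), a call lost without Ctrl replicate 2 (adjusted p = 0.060), Hypo replicate 3 (0.053) or Hypo replicate 5 (0.053), with limma. Without Ctrl replicate 3, 5 of the cascade genes fell, and 2095 of all 15746 genes tested fell, against 1378 in the main test. On leaving out Ctrl replicate 1, Ctrl replicate 4 or Hypo replicate 2, 1 cascade gene fell. Of all genes tested, 881, 852 and 948 fell in these settings, in that order.

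Of 17 feedback inhibitor genes of the MAP kinases, 1 rose (Spry4), against 14.1% of all genes, and 1 fell (Spred2), against 8.75%. The other 15 did not pass. Spry4, a Sprouty protein that restrains receptor tyrosine kinase signals, was at 456, 412, 361 and 472 in Ctrl and 575, 522, 549 and 607 in Hypo (1.32-fold, adjusted p = 0.0080, limma). Spred2 had an adjusted p of 0.023 (limma), which rose to 0.063, 0.066 or 0.075 when Ctrl replicate 1, Ctrl replicate 4 or Hypo replicate 3 was omitted. Dusp1, a phosphatase that inactivates p38, JNK and ERK and is itself an immediate early gene, was at 348, 416, 324 and 416 in Ctrl and 405, 465, 343 and 621 in Hypo (adjusted p = 0.28, limma). Dusp8 passed without Hypo replicate 4 (adjusted p = 0.011, limma), where 2 genes of the list and 2158 of all 15746 genes tested rose. Spry2, another Sprouty gene, was at 853, 834, 820 and 941 in Ctrl and at lower values in all Hypo libraries (730, 744, 724 and 797), just short of the threshold (adjusted p = 0.051, limma). It was called lower in 13 of 22 alternatives, among them edgeR (adjusted p = 0.035) and DESeq2 (0.012), and edgeR and DESeq2 each called 2 genes of this list lower. Leaving out Ctrl replicate 3 brought the number that fell to 3, and leaving out Hypo replicate 5 brought it to 2. It was 0 on leaving out Ctrl replicate 1, Ctrl replicate 4 or Hypo replicate 3.

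Of 15 genes known as AP-1 targets, 3 rose (Mmp3, Mmp9 and Il6), against 14.1% of all genes, and 1 fell (Ccnd1), against 8.75%. The other 11 did not pass, and the median difference of the list was 0.14. The matrix protease gene Mmp9 was at 737, 850, 961 and 1016 in Ctrl and 2012, 1735, 3175 and 2002 in Hypo (2.50-fold, difference 1.10 ± 0.14 (SE), adjusted p = 0.00015, limma). Mmp3, encoding stromelysin, was at 676, 714, 537 and 725 in Ctrl and 976, 1013, 1350 and 1184 in Hypo (1.71-fold, adjusted p = 0.00059, limma). For both proteases Hypo replicate 4 was the highest library. That library was the lowest of Hypo for Egr1 and Jun, but not for Fos, Fosb or Junb. Among Hypo it was the lowest for 4 of the genes described here and for 33.5% of all genes tested. Il6, an inflammatory cytokine, was low in Ctrl (5.12, 2.61, 4.53 and 6.84) and higher in all Hypo libraries (12.7, 15.7, 35.8 and 23.6; adjusted p = 0.0044, limma). Ccnd1, encoding cyclin D1, fell (difference −0.30 ± 0.06 (SE), adjusted p = 0.0053, limma).

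Of the 16 stress response genes, 1 rose (Hspb1), against 14.1% of all genes, and 1 fell (Phgdh), against 8.75%. Hspb1, a small heat shock protein, was at 32.8, 26.9, 36.2 and 32.5 in Ctrl and 116, 90.8, 63.4 and 144 in Hypo (3.22-fold, adjusted p = 0.00078, limma). The Phgdh call (adjusted p = 0.043, limma) was lost on leaving out any library but Hypo replicate 4, with values from 0.055 to 0.13. Without Ctrl replicate 3, 5 genes of this list rose. In that setting 2743 of all 15746 genes tested rose, against 2219 in the main test. Without both Ctrl replicate 3 and Hypo replicate 4, Egr1, Egr2, Fos, Fosb, Jun and Junb were all called higher, with differences of 1.76, 0.31, 0.44, 0.20, 0.63 and 0.60. Of all genes tested, 2835 were called higher there.

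**Figure D4:**
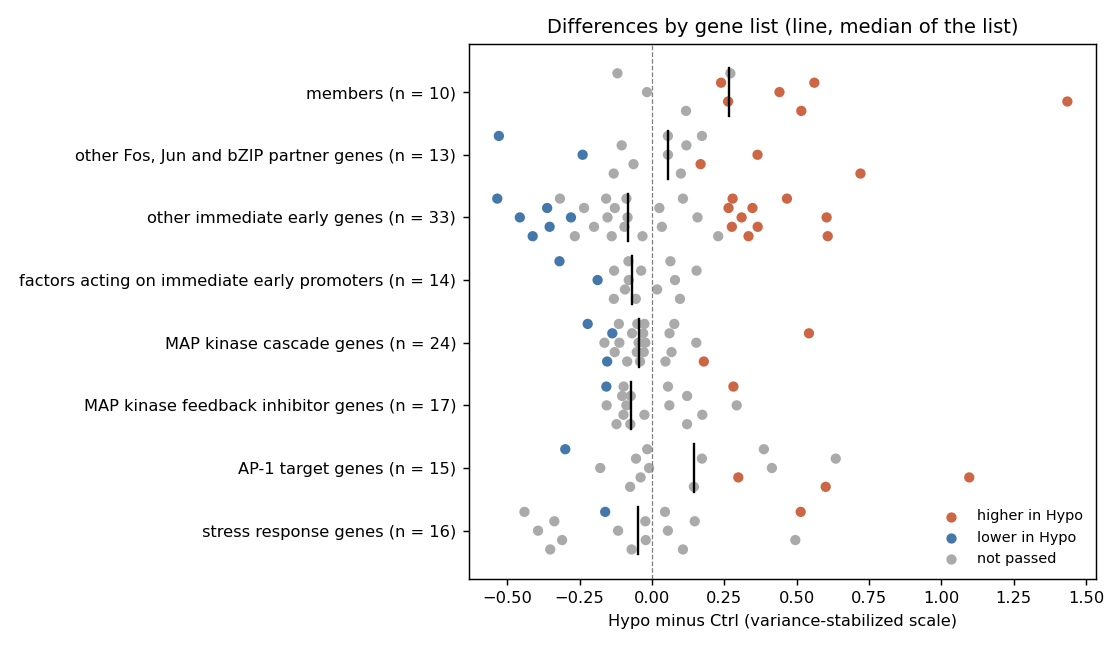
Difference between Hypo and Ctrl on the variance-stabilized scale for each tested gene of 8 lists, with a line at the median of the list. Orange points rose, blue points fell and gray points did not pass (limma, adjusted p below 0.05). Of the 10 genes described here 6 are orange, and the median of their differences is 0.27.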

How the data were processed

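RNA was profiled in 8 libraries of 4T1 cells, grouped by sample title. Stranded libraries were made from polyadenylated RNA, and the submitters' processing notes name bcl2fastq, STAR, HTSeq, DESeq2 and GRCm38. The authors deposited normalized counts for 23606 genes, a signal made by dividing reads by a size factor, and variance-stabilized values on a log2-like scale for 27336 genes. This scale compresses differences at low counts, since a count of 0 became 7.08, a count of 10 became 7.47 and a count of 100 became 8.29. The columns of the authors' own comparison (mean expression, fold change with error, Wald statistic and p-values) were not used.

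Genes were tested with limma 3.58.1 (trend, two-sided, Benjamini-Hochberg) in R 4.3.3 on the transformed values of the 15746 genes that were present in each table and whose mean normalized count reached 10. In each library 100% of normalized counts corresponded to whole reads once multiplied by the library's size factor (tolerance 0.01). On these reads edgeR 4.0.16 called 2175 genes higher and 1516 lower. DESeq2 1.42.0 was also run on them. Further alternatives were other filters, scalings, variance models and pseudocounts (1 and 5), library weights, a replicate block and leaving out libraries. The limma and edgeR fits were tested on simulated data. Precision from depth concerns counting error alone, because amplified reads are not separate molecules.

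The genes and lists were chosen with earlier results of these data known, and counts over lists are descriptions. Named by rule were the 10 genes, the 4 genes of each list with the smallest p, Fosl2, Jund, Atf3, Nab1, Nab2, Srf and Dusp1, and the 6 other genes most like the mean of the 10. Not every gene that this rule selects is reported here. Names outside this rule (Maf, Mapk13, the markers and the overlapping genes) were added after their values were seen. Exon lengths come from the GENCODE annotation of GRCm38 and upstream sequences from RefSeq (GRCm38.p6).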

Additional observations from a re-analysis of the deposited data

Results flagged for a closer look

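In 7 of 98 groups of 4 libraries examined (the genes named by rule, each in Ctrl and in Hypo), 1 library lay far from the others by Dixon's criterion, which chance meets in about 1 in 20 groups. Among the genes described here these were Egr3 in Ctrl replicate 2 (normalized count 46.1, the highest of Ctrl) and Fosl1 in Hypo replicate 5 (2026, the highest of Hypo). Ctrl replicate 3 was the highest of its group for Phgdh (13695) and Atf5 (2877). Hypo replicate 4 was the lowest of its group for Crem (390). Hypo replicate 5 was the highest of its group for Phldb3 (583) and Entr1 (2355), genes selected for their likeness to the 10. Since 8 of those 10 were highest in Hypo replicate 5 among Hypo, that selection favors such genes. All 98 groups come from the same 8 libraries and are not independent, so the rate of 1 in 20 is only a guide.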

How the results depend on the processing

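Egr1, Fos and Junb were called higher in each of the 22 alternatives. The number of the 10 genes that rose was 5 to 6 with 1 library left out, and the number that fell was 0. Egr3 alone fell, a count of 1, in each of 3 settings (quantile normalization, library weights, and removal of Ctrl replicate 3 together with Hypo replicate 4). Over all genes quantile normalization gave 1818 higher and 1962 lower against 2219 and 1378 in the main test, and counts over the alternatives ranged from 1283 to 3309 higher and from 322 to 2673 lower. The Jun call was also lost with a minimum count of 50 (adjusted p = 0.053, limma) and with DESeq2 (0.058). Some differences that were not called changed sign. With libraries left out, Fosl1 ranged from −0.19 to 0.065 (positive on removal of Ctrl replicate 4 or of Hypo replicate 2, 3 or 4), Ier2 from −0.037 (Hypo replicate 5 removed) to 0.28, and Nab1 from −0.024 to 0.054 (negative on removal of Ctrl replicate 3, Hypo replicate 3, Hypo replicate 4, or either pair removed). Fosl1 was at 0.0028 with edgeR, and Nab1 at −0.0058 with edgeR run unfiltered. Over the alternatives 4 to 11 other immediate early genes rose and 4 to 14 fell, and 2 to 5 AP-1 target genes rose. The causes were not tested. At a mean normalized count under 50, as for Egr2 and Egr3, depth limits precision.

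Replicate numbers 2, 3 and 4 are in both groups, but same-numbered libraries did not deviate together (correlations of −0.11, −0.21 and −0.17). With the replicate number as a block in limma, which uses only the paired numbers, 3 of the 10 genes were higher (Egr1, Fos and Junb), Egr2 had an adjusted p of 0.081, Fosb of 0.095 and Jun of 0.17, and Ier2 had a difference of −0.0084.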
